A study of Mus musculus with 12 samples.

Results

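Mitochondrial ribosomal protein genes were read in 12 SAGE-Seq libraries of mouse hippocampus. The genes were taken by name, as every symbol that begins with Mrpl or Mrps and a number, with the transcript of the largest summed signal standing for each gene and a signal of at least 10 required in 3 or more of the 12 libraries. This gave 73 genes of the 23361 gene names in the table. The table held 75 such symbols on 84 transcripts, and 1 further gene of the family was left out beforehand and is not described. Mrpl55, whose highest signal was 7.66, and Mrps36, which was listed at 0 in all 12 libraries, fell short of the minimum. Just inside it were Mrpl9, which reached a signal of 10 in 4 libraries, and Mrps16, which reached it in 5. The selection used the level of a gene and no comparison between groups. Since each group had 3 libraries, a gene could still pass through 1 high group. Mrpl9 reached the minimum in aged EE library 3, young EE library 1 and young SH libraries 2 and 3. Of the 73 genes, 48 encode proteins of the large subunit and 25 of the small subunit. Mrps18a and Mrps30 carry small-subunit names but their proteins sit in the large subunit, and they were placed there.

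The animals were wild type C57/BL6 mice, males by the methods of the study, and every library came from the single hippocampus of 1 mouse. There were 4 groups of 3 libraries. Aged mice (14 to 17 months) were kept in environmental enrichment (aged EE) or in standard housing (aged SH), and young mice (5 to 6 months) likewise (young EE and young SH). These ages are those of the labels. The methods of the study give ages at the start of the experiments, so these may not be the ages at death. Enrichment meant large cages with running wheels, tunnels, ladders and objects that change. By the methods of the study, all mice were trained in the Morris water maze, a spatial memory task, before and after this housing. They were killed weeks after the last test. SAGE-Seq cuts cDNA at the sequence CATG with the enzyme NlaIII and reads a short tag from the site nearest the poly(A) tail, so that the number of tags of a gene does not grow with its length and genes can be set side by side. Levels are given as RPM, the reads of a gene per 1000000 reads of its library, where library sizes were adjusted by TMM, a method of edgeR that assumes most genes to be unchanged.

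The mitochondrial ribosome translates the few messenger RNAs that mitochondrial DNA encodes, all of them for subunits of the respiratory chain and ATP synthase. Its ribosomal RNAs come from mitochondrial DNA, whereas each of its proteins is encoded in the nucleus, made in the cytosol and imported. The small subunit binds and decodes the messenger RNA and the large subunit forms the peptide bond, and beside proteins shared with bacterial ribosomes both hold proteins found only in mitochondria. Among the 73 genes, 47 encode proteins with a bacterial homologue and 26 encode mitochondrion-specific ones.

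The reads recovered from the table ran from 6928729 (aged SH library 3) to 16035089 (aged EE library 3) over all transcripts, and from 4894626 to 11259821 with 1 transcript per gene, the totals that entered the tests. Markers of neurons averaged 11.31 to 11.79 on the log2 scale over 7 genes in the 12 libraries, as the label hippocampus requires. Those of the choroid plexus, a tissue next to the hippocampus, stood at 9.37 over 7 genes in aged EE library 3 and at 4.69 to 5.90 in the 11 others. Markers of red blood cells (4 genes tested) stood at 9.61 to 11.78 in the young SH libraries and at 7.57 to 9.03 in the other 9. Markers of the pituitary, of which 2 were tested, stood at 5.44 to 6.92 in aged EE and at 6.06 in young SH library 1, and at 2.99 to 3.91 in the 8 others. The parts of these tissues in the results that follow were not tested.

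The tag that stands for each gene was predicted from the GENCODE transcript that ends nearest to the deposited one, in the NCBIM37 genome, the build of the files (mm9). A tag was taken as the 27 bases from the last CATG that such a tag can follow. All 73 genes had one, and it lay in the 3′ UTR in 53, in the coding sequence in 19 and in the 5′ UTR in 1. In 59 genes the GENCODE transcript ended within 50 bases of the deposited one. In the rest it ended farther away, and whether the predicted tag is the one counted was not tested. In the genome, 61 tags occurred once, 11 more than once and 1 lay across a splice site. The tags of the genes on which the results turn are given here, with the NlaIII site in capitals, followed by the tag of the most abundant gene and of a scarce one for comparison.
Mrps6: CATGaccattttgctgcaggaggtaga
Mrps10: CATGgagatctatcggcctctgcctcc
Mrps27: CATGgtctgtccccttcccatcactgc
Mrps24: CATGagtagaaggcattggatattcct
Mrpl27: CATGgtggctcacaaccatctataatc
Mrpl32: CATGaataaactcagcatatttatgta
Mrpl13: CATGttaataaaatgcttatttggtta
Mrpl9: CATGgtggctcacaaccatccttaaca
In mm9 these lie in the 3′ UTR of their genes, at chr16:92112254-92112280 (Mrps6, plus strand), chr17:47515573-47515599 (Mrps10, plus), chr13:100185439-100185465 (Mrps27, plus), chr11:5604035-5604061 (Mrps24, minus), chr11:94521305-94521331 (Mrpl27, plus), chr13:14702571-14702597 (Mrpl32, minus), chr15:55365653-55365679 (Mrpl13, minus) and chr3:94252528-94252554 (Mrpl9, plus). The tags of Mrps6, Mrps27, Mrps24, Mrpl32 and Mrpl13 were found at 1 place in the genome. The tag of Mrps10 was found at 2 places, that of Mrpl27 at 5 and that of Mrpl9 at 93. The tags of Mrpl27 and Mrpl9 share their first 20 bases, which stand at 40531 places in the genome. How reads of tags with several copies were placed in the mapping was not tested, and the reads of these genes are uncertain to that extent.

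The genes spanned a 237-fold range of level. Mrpl13, a large-subunit protein with a bacterial homologue, was the most abundant, at 238 RPM on average (SD 39.6 over 12 libraries), followed by Mrpl15 (195 RPM), Mrpl18 (187 RPM) and Mrpl30 (167 RPM), all of the large subunit. At the other end stood Mrps16 (1.0 RPM), Mrpl9 (1.17 RPM), Mrpl50 (1.19 RPM) and Mrpl27 (1.91 RPM). The 4 highest genes held 21.8% of the reads of the 73, and the 10 highest held 43.8%. The median gene had 26.8 RPM, against 18.5 RPM over all 13138 genes tested. Small-subunit genes were the scarcer, with a median of 12.5 RPM against 34.1 RPM for large-subunit genes. Genes of proteins with a bacterial homologue had a median of 20.3 RPM and those of mitochondrion-specific proteins 34.1 RPM.

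**Figure D1:**
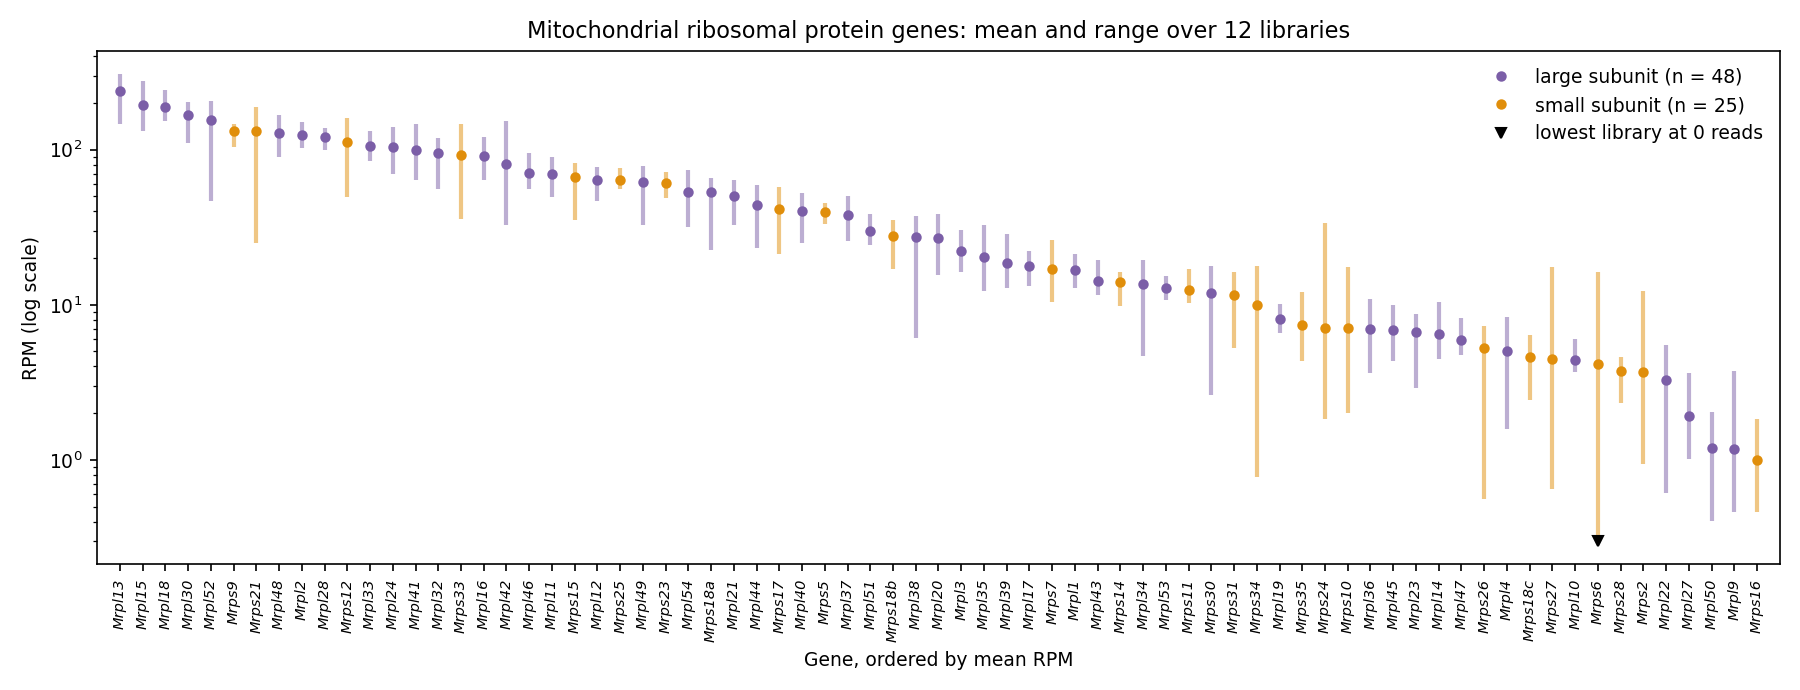
The plot shows the level in RPM, on a log axis, of the 73 mitochondrial ribosomal protein genes in order of their mean, with points for the mean over 12 libraries and lines from the lowest to the highest library, coloured by subunit. Levels run from 238 RPM (Mrpl13) to 1.0 RPM (Mrps16). Both subunits are spread over the range, with a lower median for small-subunit genes (12.5 RPM against 34.1 RPM). The triangle marks Mrps6, which had 0 reads in 1 library.

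Level went with the position of the tag. Among 59 genes whose GENCODE transcript ended within 50 bases of the deposited one, the 39 with a tag at most 250 bases from the end had a median of 44.2 RPM and the 20 with a tag farther away had 10.7 RPM (Spearman's rho of level and distance -0.42 across these genes, which are not independent replicates). The tag of Mrpl13 starts 30 bases from the end of its transcript, that of Mrpl50 starts 1019 bases from it, and the only NlaIII site of Mrps16 that gives a tag lies 505 bases from it, in the 5′ UTR. The 11 genes whose tag has several copies in the genome had a median of 6.83 RPM, against 38.1 RPM for the 61 with a single copy. These counts include genes outside the 59. Spearman's rho of level and copies was weaker, at -0.186 across the 73 genes, and Mrps21 (131 RPM) and Mrpl48 (129 RPM) were abundant with 2 copies each. A rank by RPM is therefore a rank of tags, and its relation to messenger number was not tested.

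To see how far the genes varied, the SD of the log2 values over the 12 libraries was taken for the 60 genes with a mean of at least 50 reads. Its median was 0.29, against 0.32 over 9595 genes of the table with as many reads. Mrps25 (SD 0.112), Mrps5 (0.129), Mrps9 (0.137) and Mrpl2 (0.160) varied least. Mrps25 lay between 56.1 and 76.4 RPM in all 12 libraries. Mrps24 (SD 1.27), Mrps34 (1.12), Mrps30 (0.932) and Mrps10 (0.826) varied most. In Mrps34 and Mrps30 single libraries made the spread. Mrps34 had 0.772 RPM in aged SH library 2, from 5 reads, against a median of 10.2 RPM in the other 11 libraries, and Mrps30 had 2.61 RPM in aged SH library 1 and 3.07 RPM in young EE library 1 against 13.9 RPM.

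The summed level of the 73 genes was 3440 ± 86.5 RPM in young SH, 3640 ± 49.2 in young EE, 3530 ± 119 in aged SH and 3820 ± 149 in aged EE (mean ± SD, n = 3 each). The libraries of young EE (3600 to 3690 RPM) and of aged EE (3660 to 3950 RPM) lay above those of young SH (3380 to 3540 RPM), while aged SH (3460 to 3670 RPM) overlapped all 3 other groups. A mean of log2 values, which weighs scarce and abundant genes alike, gave another order. Over the 73 genes it was 7.68 to 7.75 in the young SH libraries and 7.42 to 7.65 in the other 9, so that young SH was the lowest group by summed reads and the highest by mean log2.

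Age was compared within standard housing. In aged SH, 5 of the 73 genes differed from young SH at a Benjamini-Hochberg adjusted p below 0.10 in limma, where 2.81% of all 13138 genes did so, and 4 of the 5 were lower. Those that fell were Mrps10, Mrps6, Mrps27 and Mrpl27, and Mrpl32 rose. The 4 that fell were scarce, with means between 1.91 and 7.10 RPM and ranks from 55 to 70 among the 73. In bulk tissue, fewer cells of a type and less RNA per cell cannot be told apart.

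Mrps6, whose product is a small-subunit protein with a bacterial homologue, had 8.66, 16.2 and 12.9 RPM in the young SH libraries, and 0.703, 2.63 and 1.84 RPM in aged SH. It had 1.58, 1.22 and 2.44 RPM in young EE and 1.41, 0 and 0.378 RPM in aged EE. The 3 young SH libraries lay above all 9 others, while the other groups overlapped each other. Aged SH over young SH gave -2.81 on the log2 scale (SE 0.63, adjusted p = 0.0834 from limma).

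Mrps10, a small-subunit protein with a bacterial homologue, had 10.5, 9.92 and 17.6 RPM in young SH and 5.02, 2.01 and 3.48 RPM in aged SH, without overlap (log2 fold change -1.82, SE 0.39, adjusted p = 0.0792 from limma). Its level in young EE library 1, 11.5 RPM, reached the young SH range, whereas libraries 2 and 3 of young EE had 4.88 and 5.50 RPM. Mrps27, a mitochondrion-specific protein of the small subunit, had 9.19, 5.45 and 17.4 RPM in young SH and 3.01, 1.08 and 2.25 RPM in aged SH (-2.16, SE 0.55, adjusted p = 0.0934). Here too young EE library 1 was the highest of its group, with 6.52 RPM against 1.77 and 3.79.

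Mrpl27, a large-subunit protein with a bacterial homologue, had 3.17, 2.68 and 3.62 RPM in young SH and 1.31, 1.39 and 1.02 RPM in aged SH (-1.20, SE 0.29, adjusted p = 0.0875 from limma). These are 27 to 30 reads per young SH library and 5 to 13 per aged SH library, of the tag with 5 genome copies shown above. Mrpl32, the protein of the large subunit whose maturation in the mitochondrial matrix is needed for ribosome assembly, had 71.3, 82.0 and 56.1 RPM in young SH and 106, 118 and 119 RPM in aged SH (0.72, SE 0.16, adjusted p = 0.0815). It was the 1 abundant gene called, and its young SH libraries lay below all 9 others, which ran from 90.7 to 119 RPM. Such a place of young SH below the 9 others was found in 1.93% of all genes tested and in 2 members (2.74%).

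**Figure D2:**
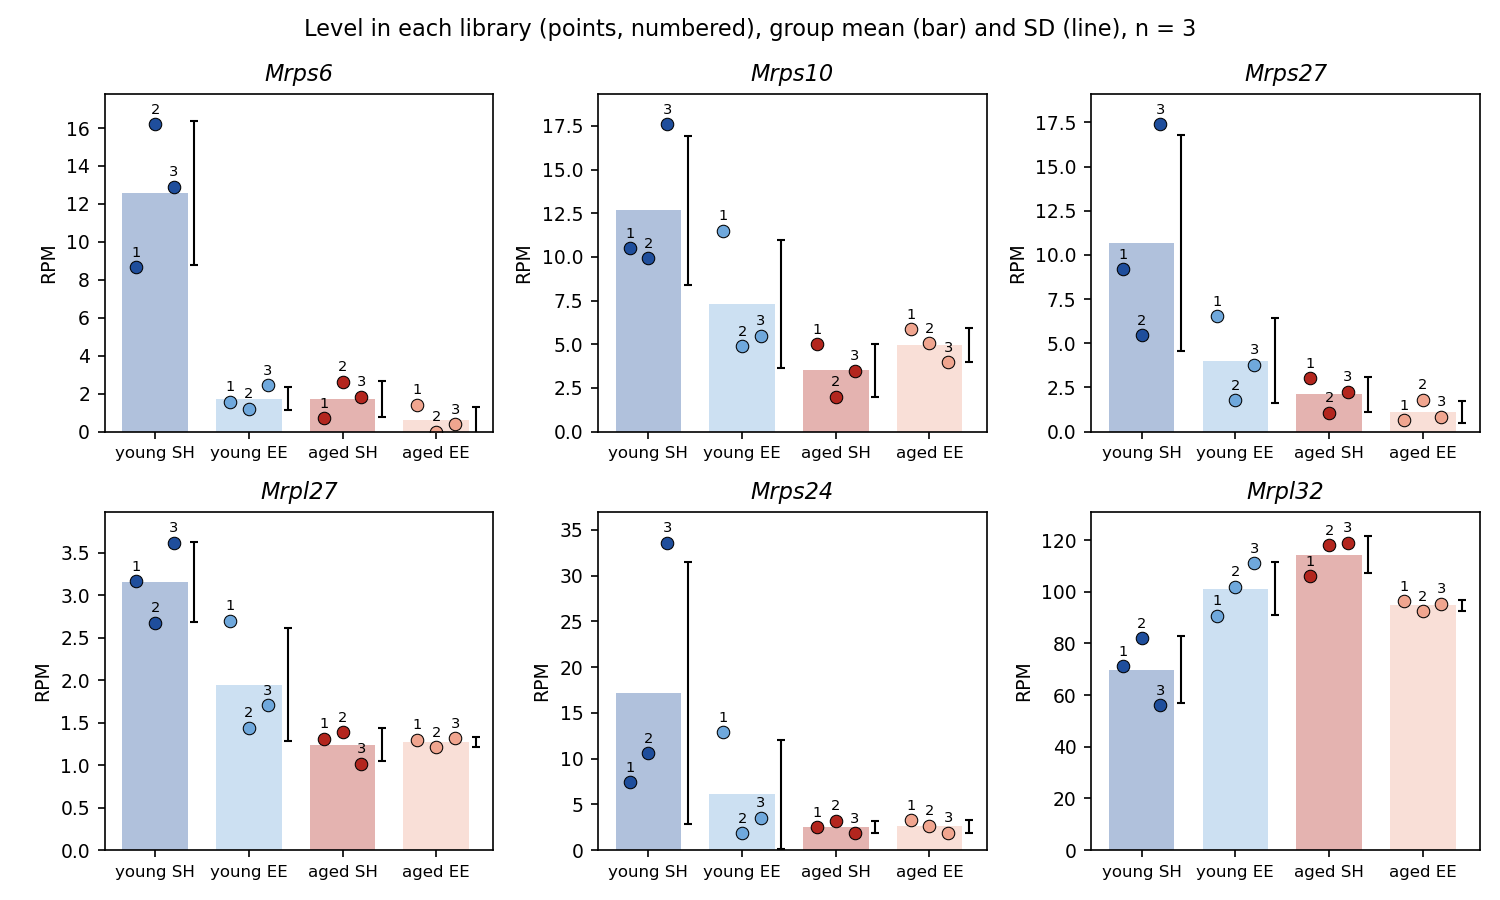
The plot shows RPM on a linear axis from 0 in each library (points, numbered by replicate), with the mean (bars) and SD (lines) of each group of 3, for the 5 genes called in aged SH against young SH and for Mrps24. Mrps6, Mrps10, Mrps27, Mrpl27 and Mrps24 are highest in young SH, with young EE library 1 the highest of the other 9 libraries in all but Mrps6, and Mrpl32 is lowest in young SH.

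Mrps24, a small-subunit protein with a bacterial homologue, stood just outside the threshold (-2.38, SE 0.64, adjusted p = 0.103 from limma). It had 7.40, 10.6 and 33.6 RPM in young SH and 2.51, 3.24 and 1.84 RPM in aged SH. Its value in young SH library 3 was 3.28 above the median of the other 11 libraries on the log2 scale. Mrpl15 (0.61, SE 0.17, adjusted p = 0.111) and Mrpl16 (0.49, SE 0.16, adjusted p = 0.151), both of the large subunit, were higher in aged SH without overlap. Mrpl42 had 126, 134 and 137 RPM in young SH and 77.1, 32.7 and 70.3 RPM in aged SH (-1.23, SE 0.41, adjusted p = 0.154).

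Over all 73 genes, the median log2 fold change of aged SH over young SH was -0.12, against -0.01 over all genes, and 29 genes lay above 0. In 19 genes (26.0%) the libraries of the groups did not overlap, 7 higher and 12 lower in aged SH, where 24.7% of all genes did not overlap. An unadjusted p below 0.05 was found in 13 genes (17.8%), against 19.3% of all genes, so the share of the family was near the background. The quasi-likelihood test of edgeR called 6 genes, with Mrps24 added, where it called 2.69% of all genes. The likelihood ratio test called 8 (7.4% of all genes) and DESeq2 called 9 (8.72% of the genes it adjusted).

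The direction and rough size of these 5 differences held with any 1 library left out, whereas the calls did not. Over the 12 fits the log2 fold change ran from -3.16 to -2.34 for Mrps6, from -2.1 to -1.5 for Mrps10, from -2.53 to -1.73 for Mrps27, from -1.29 to -1.09 for Mrpl27 and from 0.59 to 0.87 for Mrpl32. Leaving out aged EE library 3, young EE library 3, any aged SH library, young SH library 1 or young SH library 3 left 0 genes called by limma, and leaving out aged EE library 1 or 2 left only Mrps6. Without young EE library 1, young EE library 2 or young SH library 2, 8, 7 and 7 genes were called and all 5 stayed among them. The adjusted p of the 5 genes ran from 0.0209 to 0.328. The aged EE and young EE libraries enter this comparison only through the shared spread, scaling and filter. With the 8 libraries that the authors compared, 2 per group, 0 were called. Young SH library 3 also had the highest level of the red blood cell markers (11.78), of which Hbb-b1 and Hbb-b2, beta-globin genes with the same reads, fell in aged SH (-3.24, SE 0.83, adjusted p = 0.0942). The markers were higher in young SH than in the 9 other libraries, as was the level of Mrps6. Markers of other hippocampal cells and regions also moved between these groups, with none called by limma. Those of dentate granule cells averaged 8.54, 7.44 and 8.29 on the log2 scale in young SH and 7.34 to 7.61 in aged SH, with 7 of 8 lower (median log2 fold change -0.81, 4 at an unadjusted p below 0.05). Those of oligodendrocytes averaged 10.45, 9.09 and 10.49 in young SH and 9.14 to 9.75 in aged SH, with 10 of 11 lower (median -0.51). In both lists young SH libraries 1 and 3 were high and library 2 was not. Markers of the ventral hippocampus averaged 6.37, 7.86 and 6.10 in young SH and 7.18 to 7.89 in aged SH (8 genes, median 0.69). The parts of blood, these cells and these regions in the calls were not tested.

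Housing was then compared within the young. No gene of the family passed in young EE against young SH, where 0% of all genes passed in limma. Unadjusted p was below 0.05 for 9 members (12.3%), against 9.61% of all genes. The likelihood ratio test of edgeR called Mrps6 (0.502% of all genes were called), DESeq2 called Mrps6 and Mrpl36 (1.02% of the genes it adjusted), and the quasi-likelihood test called 0. In 13 members (17.8%) the libraries did not overlap, 7 higher and 6 lower in young EE, against 12.9% of all genes. The median of the members was -0.02, and that of all genes was 0.00.

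Mrps6 again had the smallest p, without overlap (-2.70, SE 0.63, adjusted p = 0.336 from limma). Mrpl36, a small protein of the large subunit with a bacterial homologue, had 10.9, 6.94 and 10.1 RPM in young SH and 3.63, 4.54 and 5.50 RPM in young EE (-0.99, SE 0.25, adjusted p = 0.371). The 3 young EE libraries held the lowest values of all 12, with aged SH library 3 next at 5.53 RPM. Young EE lay below the 9 others in 0.259% of all genes tested and in 1 member (1.37%). Mrpl32 had 90.7, 102 and 111 RPM in young EE, above the 3 young SH libraries (0.55, SE 0.16, adjusted p = 0.392). Mrps26, a mitochondrion-specific protein of the small subunit, had 0.559, 4.66 and 4.64 RPM in young EE and 6.87, 7.24 and 6.88 RPM in young SH (-1.44, SE 0.56, adjusted p = 0.459), a difference that young EE library 1 widened.

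In the aged, EE was compared with SH. No member passed in limma, where 0.00761% of all genes, 1 gene, passed, and the quasi-likelihood test, the likelihood ratio test and DESeq2 called 0 members as well. Unadjusted p was below 0.05 for 3 members (4.11%), against 8.87% of all genes. The median of the 73 log2 fold changes was 0.13, against 0.03 over all genes, and 48 of the 73 were above 0. In 10 members (13.7%) the libraries did not overlap, 6 higher and 4 lower in aged EE, against 17.2% of all genes.

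The smallest p belonged to Mrpl49, a mitochondrion-specific protein of the large subunit, with 62.3, 78.8 and 72.2 RPM in aged EE and 38.2, 75.7 and 32.8 RPM in aged SH (0.63, SE 0.26, adjusted p = 0.530 from limma). The groups overlapped through aged SH library 2. Mrps7, a small-subunit protein with a bacterial homologue, had 13.7, 26.2 and 20.8 RPM in aged EE and 12.4, 17.0 and 10.4 RPM in aged SH (0.58, SE 0.25, adjusted p = 0.546). Mrpl39 was the lower in aged EE, with 13.0, 12.9 and 14.7 RPM against 20, 16.2 and 22.9 RPM and no overlap (-0.52, SE 0.25, adjusted p = 0.569). Mrps6 (-1.52, SE 0.63, adjusted p = 0.533) was compared at levels of at most 2.63 RPM.

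The enriched groups were compared by age. No member passed in aged EE against young EE by limma, where 0% of all genes passed, nor by the quasi-likelihood test, the likelihood ratio test or DESeq2. Unadjusted p was below 0.05 for 5 members (6.85%), against 7.88% of all genes. In 17 members (23.3%) the libraries did not overlap, 12 higher and 5 lower in aged EE, against 16.5% of all genes. The median of the members was 0.10, against -0.01 over all genes.

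Mrps27 had 0.652, 1.81 and 0.851 RPM in aged EE and 6.52, 1.77 and 3.79 RPM in young EE (-1.60, SE 0.55, adjusted p = 0.627 from limma), and the groups overlapped. Mrps6 had the same adjusted p, with a log2 fold change of -1.64 (SE 0.63). Mrpl48, a mitochondrion-specific large-subunit protein, had 166, 141 and 167 RPM in aged EE, above the 9 other libraries, and 90, 127 and 128 RPM in young EE (0.47, SE 0.19, adjusted p = 0.627). Aged EE lay above the 9 others in 1.75% of all genes tested and in 2 members (2.74%). Mrpl33, the homologue of a small bacterial large-subunit protein, had 131, 119 and 129 RPM in aged EE against 85.0, 116 and 87.8 RPM in young EE (0.40, SE 0.17, adjusted p = 0.627).

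Whether the response to housing differed by age was tested as the difference between the log2 fold change of EE over SH in the aged and that in the young. No member passed in limma, where 0% of all genes passed, and 8 members (11%) had an unadjusted p below 0.05 against 12.1% of all genes. The quasi-likelihood and likelihood ratio tests called 0 members, and DESeq2 called Mrpl32 (2.44% of the genes it adjusted). In Mrpl32 the log2 fold change of EE over SH was 0.55 in the young and -0.27 in the aged, where 96.4, 92.4 and 95.4 RPM in aged EE lay below the 3 aged SH libraries. Their difference was -0.82 (SE 0.22, adjusted p = 0.255 from limma).

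Mrpl34, a large-subunit protein with a bacterial homologue, had the next smallest p (difference 1.70, SE 0.63, adjusted p = 0.321). It had 17.5, 19.3 and 16.7 RPM in aged EE against 9.24, 17.8 and 4.92 RPM in aged SH, and 4.66, 13.6 and 12 RPM in young EE against 18.5, 15 and 14.6 RPM in young SH. Mrpl36 (0.94, SE 0.36, adjusted p = 0.333) and Mrps17, of the small subunit (0.89, SE 0.35, adjusted p = 0.353), followed. The median over all 73 genes was 0.27, against 0.03 over all genes, and 51 of the 73 were above 0. All 4 groups enter this difference, among them young SH, which was the highest group by mean log2 and the lowest by summed reads. The part of young SH in this median was not tested.

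By mean log2 value, the subunits did not behave alike in young SH. The mean log2 value of the 25 small-subunit genes was 7.32 to 7.50 in the young SH libraries and 6.72 to 7.02 in the other 9. That of the 48 large-subunit genes was 7.86 to 7.88 in young SH, within the range of 7.68 to 8.0 of the others. Of the small-subunit genes, 19 of 25 had a log2 fold change below 0 in aged SH against young SH (median -0.26) and 17 of 25 in young EE against young SH (median -0.26). Of the large-subunit genes, 25 of 48 (median -0.01) and 22 of 48 (median 0.04) did. The small-subunit fold changes in aged SH against young SH ran from -2.81 to 0.32. The small-subunit mean includes the scarce genes Mrps6, Mrps24, Mrps27 and Mrps10, whose large falls are given above. In aged SH against young SH their log2 fold changes were -2.81 (Mrps6), -2.38 (Mrps24), -2.16 (Mrps27) and -1.82 (Mrps10). The mean of the 25 genes was 7.38 in young SH and 6.82 in aged SH. Much of that step came from these scarce genes, and the mean is not a measure of the whole subunit. A mean without them was not tested. The comparisons of aged SH and of young EE with young SH share the young SH libraries. On the linear scale the order is another, since the summed small-subunit level in young SH (912 ± 57.9 RPM, SD, n = 3) lay between that in young EE (893 ± 53.1) and aged EE (929 ± 81.9), with aged SH at 797 ± 106.

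**Figure D3:**
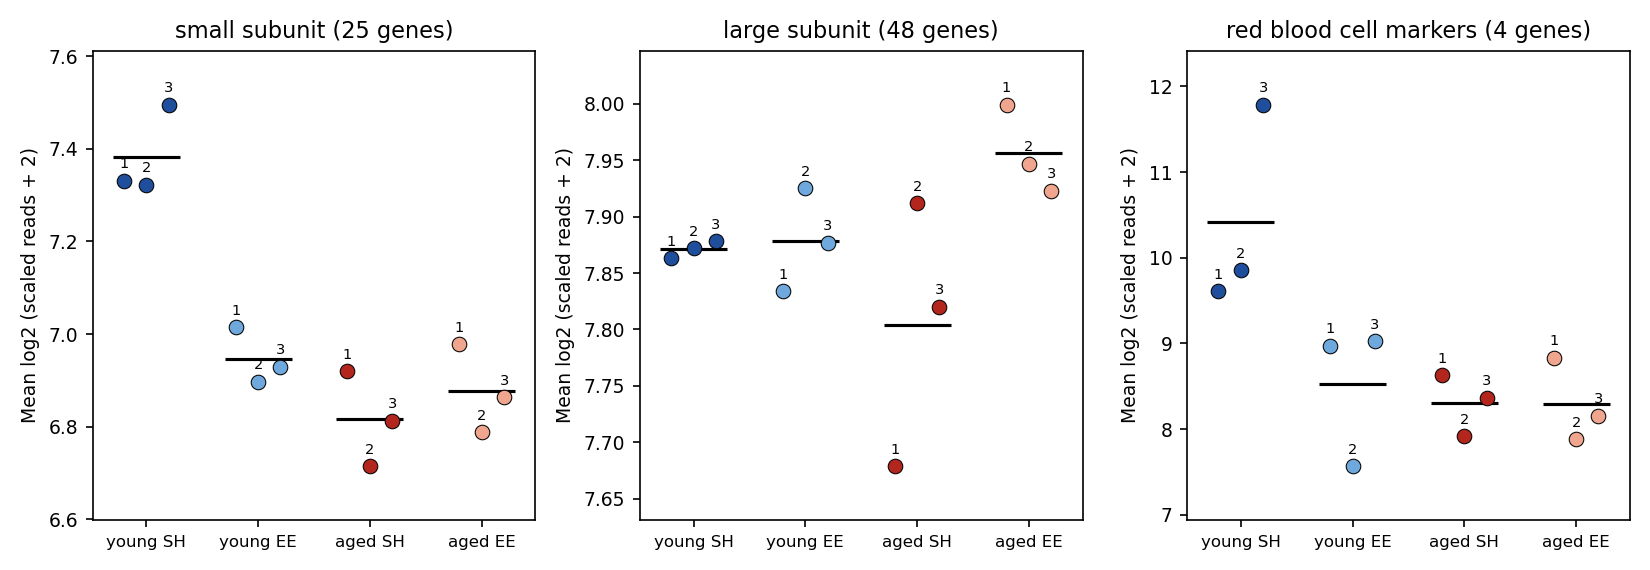
The plot shows the mean log2 value (scaled reads plus 2) in each library (points, numbered by replicate; lines are group means) of the 25 small-subunit genes, the 48 large-subunit genes and the 4 red blood cell markers tested, on separate axes that do not start at 0. Small-subunit genes lie at 7.32 to 7.50 in young SH and at most at 7.02 elsewhere, large-subunit genes show no such step, and the blood markers are also highest in young SH. The small-subunit mean includes the scarce genes Mrps6, Mrps10, Mrps24 and Mrps27, from which much of its step between young SH and aged SH came.

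The shift followed the level of a gene, and it followed the subunit chiefly among scarce genes. The members were divided at their median of 26.8 RPM, a division made after the values had been seen. Of the 36 members below it, 30 had a negative log2 fold change in young EE against young SH (83.3%, median -0.22), and 29 in aged SH against young SH (80.6%, median -0.28). Of all 7605 genes tested below the same level, 55.8% (median -0.06) and 58.2% (median -0.10) were negative. Of the 37 members at or above it, 9 (24.3%, median 0.12) and 15 (40.5%, median 0.13) were negative, where 42.1% and 42.5% of 5533 genes were. Below 26.8 RPM, all 15 small-subunit genes had negative values for young EE (median -0.42) and 13 of 15 for aged SH (median -0.53), while 15 and 16 of 21 large-subunit genes did (medians -0.10 and -0.15). At or above 26.8 RPM the subunits were alike for young EE, with 2 of 10 small-subunit genes negative (median 0.14) and 7 of 27 large-subunit genes (median 0.12). For aged SH, 6 of 10 (median -0.03) and 9 of 27 (median 0.18) were negative there.

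**Figure D4:**
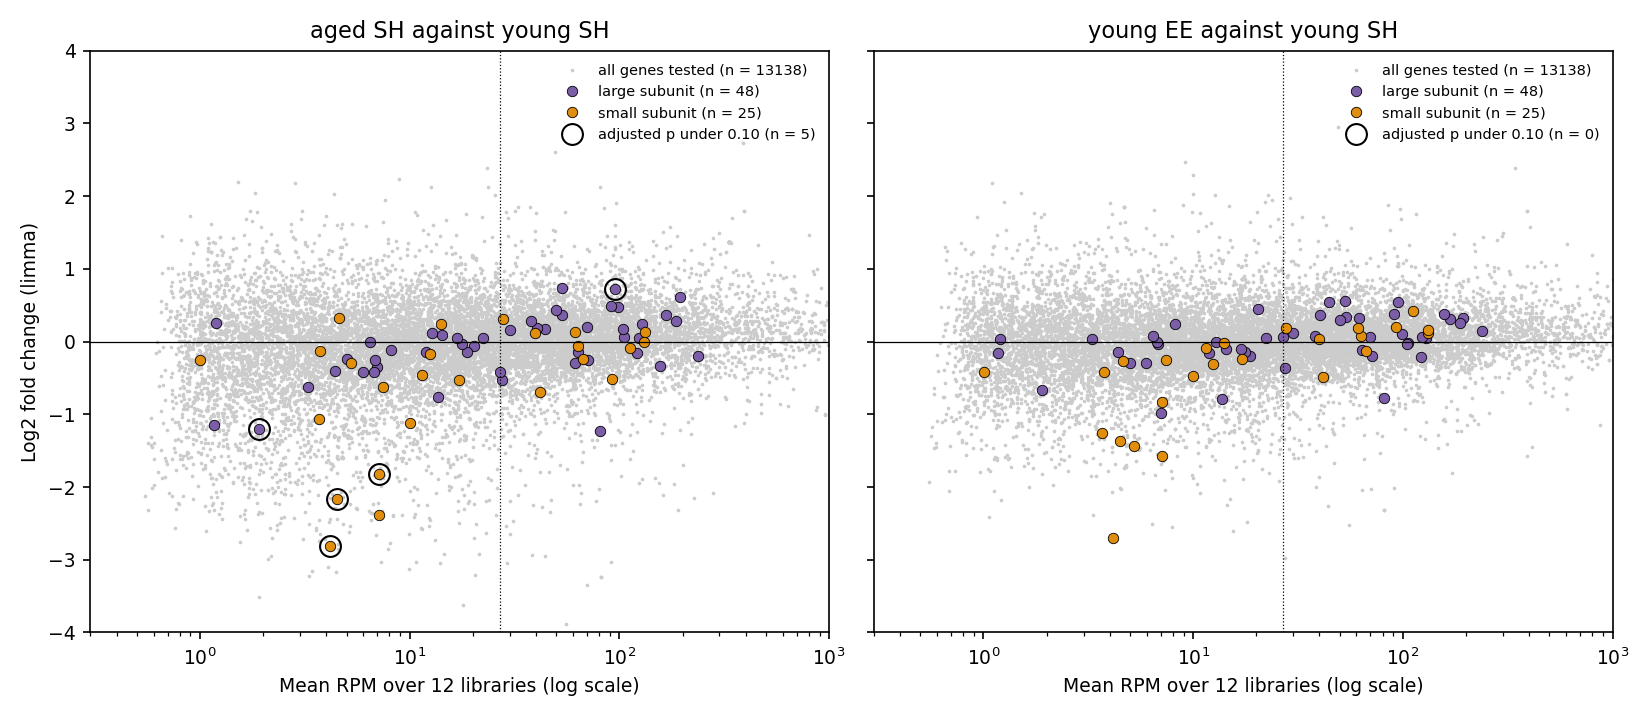
The plot shows the limma log2 fold change against the mean RPM over 12 libraries (log axis) for all 13138 genes tested (grey) and the 73 members coloured by subunit, in aged SH against young SH and in young EE against young SH; circles mark the 5 calls and the dotted line the median of 26.8 RPM. Other genes beyond the axes are not drawn. Members left of the line lie mostly below 0 in both panels, small-subunit genes farthest.

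Between aged EE and aged SH, where young SH takes no part, the members below 26.8 RPM had a median of 0.08 and those at or above it 0.19, and between aged EE and young EE 0.06 and 0.13. The step between the levels was thus seen in the comparisons with young SH. Origin made less difference than subunit. Genes with a bacterial homologue had a mean log2 value of 7.60 to 7.69 in young SH and 7.34 to 7.57 elsewhere, and mitochondrion-specific genes 7.78 to 7.84 and 7.49 to 7.85.

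The paralogs Mrps18a, Mrps18b and Mrps18c, which arose from a single bacterial-type gene and take different places in the ribosome, were read by different tags. Mrps18a was the most abundant, with 22.4 to 66.1 RPM (median of 12 libraries 56.8), then Mrps18b with 17.0 to 35.2 RPM (28.0), and Mrps18c with 2.42 to 6.43 RPM (4.57), so that the ranges of Mrps18c and Mrps18b did not overlap. None passed in any comparison. The smallest p was that of Mrps18a in aged SH against young SH (0.74, SE 0.29, adjusted p = 0.208 from limma), where the groups overlapped. The tags of Mrps18b and Mrps18c occur at 2 and 10 places in the genome.

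Genes that work with the mitochondrial ribosome were counted in the same fits. None of 6 other ribosomal subunit genes tested, 11 translation factors, 17 assembly factors, 11 genes of mitochondrial transcription and RNA processing, 17 mitochondrial tRNA synthetases or 9 regulators of mitochondrial biogenesis passed in any of the 5 comparisons by limma. At an unadjusted p below 0.05 in aged SH against young SH there were 3, 4, 4, 2, 5 and 0 of them, where 19.3% of all genes had such a p. Of 78 genes of the respiratory chain and ATP synthase, whose mitochondrially encoded partners the ribosome makes, 2 rose and 4 fell in aged SH, where 2.81% of all genes were called, with a median of 0.15. The 2 with the smallest p were Atp5e (-3.88, SE 0.81, adjusted p = 0.0750 from limma), a subunit of ATP synthase, and Ndufa4 (-2.27, SE 0.47, adjusted p = 0.0750). Of 68 cytosolic ribosomal protein genes none passed in any comparison, with a median of 0.05 in aged SH against young SH and 21 at an unadjusted p below 0.05, again where 19.3% of all genes had one.

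The promoters of the family were searched for motifs of NRF1, GABPA and YY1 and for the CCAAT and TATA boxes. NRF1 and GABPA are transcription factors known for acting on nuclear genes of mitochondrial proteins, and YY1 binds many promoters of ribosomal genes. RefSeq promoters (GRCm38.p6, 250 bases before to 50 after the start) were found for 64 of the 73 genes, 70 promoters in all, and both strands were searched. The motif of NRF1, GCGC and GCGC with any 2 bases between, was in 18.6% of them, against 12.5% of the 11999 promoters of genes tested here and 6.23% of all 32851. The motif CCGGAAG of GABPA was in 32.9%, against 15.3% and 8.86%. The motif AAGATGGC of YY1 was in 17.1%, against 3.91% and 2.75%. The CCAAT box was in 41.4%, against 37.3% and 37.4%. The TATA box TATAAA was in 7.14%, against 7.18% and 13.6%.

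The 150 bases before the start are shown for Mrpl32 and Mrps27, which were called in opposite directions in aged SH, with matches on either strand to the NRF1, GABPA and YY1 motifs in capitals.
Mrpl32: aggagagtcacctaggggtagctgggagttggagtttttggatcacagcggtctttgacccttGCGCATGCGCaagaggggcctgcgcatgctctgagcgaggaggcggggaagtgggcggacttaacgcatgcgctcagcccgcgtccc
Mrps27: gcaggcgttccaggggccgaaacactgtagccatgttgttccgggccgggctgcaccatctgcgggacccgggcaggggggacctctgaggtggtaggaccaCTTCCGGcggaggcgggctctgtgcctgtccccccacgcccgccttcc
They lie at chr13:14613038-14613187 (Mrpl32, minus strand) and chr13:99344636-99344785 (Mrps27, plus strand) of GRCm38.p6. In both, a further match to the YY1 motif lies outside the bases shown. A match describes these letters only, and no binding was measured.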

How the data were processed

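Polyadenylated hippocampal RNA was read by SAGE-Seq in 12 libraries. The authors mapped the tags to mm9, allowing 1 mismatch, and counted reads per RefSeq transcript, and the submitters' notes name edgeR. The deposited signal values are reads divided by a library factor near 1. The log2 ratios, p-values, false discovery rates, group averages and clusters of the authors' own comparisons stand in the same tables and were not used. Values below 1000 were whole multiples of 1 step per library in 100% of cases (tolerance 0.1 reads), and the reads were recovered with that step.

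The transcript with the largest summed signal stood for each gene. Genes with too few reads were removed with edgeR's filterByExpr (minimum count 10), which left 13138, and all 73 members passed. Reads were scaled by TMM, and log2(scaled reads + 2) was fitted with limma 3.58.1 over the 4 groups, so that the spread was shared, with Benjamini-Hochberg adjustment over all genes and a threshold of 0.10. Fold changes on this scale understate the change of low genes. The count tests of edgeR 4.0.16 (quasi-likelihood and likelihood ratio) and DESeq2 1.42.0 were run on the recovered reads, and the quasi-likelihood test called 354 genes in aged SH against young SH. R 4.3.3 and Python 3.11.15 were used, and the fits were tested on simulated data. The p-values measure the spread between 3 animals per group.

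Members and gene lists were chosen with earlier results of these data known. Genes were named by a rule: the 4 highest and 4 lowest levels, every call and the 4 smallest p in each comparison, the 4 steadiest and 4 most variable, the Mrps18 paralogs, the 2 smallest p of a list, and the genes nearest the minimum. Alternatives were another test, scaling, filter, pseudocount or threshold, the replicate number as a block, fewer groups and fewer libraries. Tags were read from GENCODE vM1 transcripts and the NCBIM37 genome, promoters from RefSeq.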

Additional observations from a re-analysis of the deposited data

Results flagged for a closer look

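In Mrpl32 the housing groups did not overlap at either age, and the direction was opposite. The share of all genes with this double pattern was not counted. Taken singly, the housing groups did not overlap in 12.9% of all genes in the young and in 17.2% in the aged. All 3 young EE libraries (90.7 to 111 RPM) lay above the young SH libraries (56.1 to 82.0 RPM), and all 3 aged EE libraries (92.4 to 96.4 RPM) lay below the aged SH libraries (106 to 119 RPM). The difference between the log2 fold changes was -0.82 (SE 0.22) and did not pass the test (adjusted p = 0.255 from limma), while DESeq2 gave an adjusted p of 0.0533.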

How the results depend on the processing

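In aged SH against young SH, where limma called 5 members, the likelihood ratio test called 8, DESeq2 9, no filter 3, a pseudocount of 0.5 3, a threshold of 0.05 0, a fit of only the groups compared 3 and the 8 libraries 0. In young EE against young SH, the likelihood ratio test called 1, DESeq2 2 and a pseudocount of 8 1, and DESeq2 called 1 for housing by age. With the replicate number as a block, 1 member was called in aged SH against young SH. The numbers did not pair the libraries, since the correlations of same-numbered libraries ran from -0.234 to 0.212, 5 of 18 were over 0.1, and 3 of 12 libraries matched best with their own number.

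The median of housing by age (0.27) was 0.21 by the quasi-likelihood test, 0.21 by the likelihood ratio test, 0.20 by DESeq2 and 0.17 with 8 libraries. The median of aged SH against young SH (-0.12) was -0.0813 by DESeq2, -0.22 by total counts and -0.0382 with 8 libraries. Total counts gave 0.0932 for aged EE against aged SH, -0.0955 for young EE against young SH and 0.0350 for aged EE against young EE. In single libraries, total counts shifted the log2 levels of the genes tested from those by TMM by a median of -0.0884 to 0.102.

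With each library left out in turn, the calls ran from 0 to 0 in aged EE against aged SH and in aged EE against young EE, from 0 to 1 in young EE against young SH and for housing by age, and from 0 to 8 in aged SH against young SH. The medians ran from 0.0779 to 0.161 (aged EE against aged SH), -0.0708 to 0.0377 (young EE against young SH), -0.125 to 0.0091 (aged SH against young SH, 0.0091 without aged SH library 3), 0.0563 to 0.166 (aged EE against young EE) and 0.191 to 0.289 (housing by age). Of 499 alternative values of named genes, 434 kept direction and side of the threshold, 59 lost the call, 6 gained one and 0 reversed. All 59 losses fell on the 5 genes called in aged SH against young SH. The other named values had no call in the main fit and could not lose one, so the 434 do not measure how well the calls held. The causes of these shifts were not tested. Depth limits the scarce members, since Mrps6 had 0 to 163 reads and Mrpl27 5 to 30.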

Other observations

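A second Mrpl15 transcript, which did not stand for the gene, had a signal of 19.4, 20 and 24.4 in young SH and of 4.13 to 13.1 in the other 9 libraries, while the main transcript had 1019 to 2355. Besides Mrps24, Mrps30 and Mrps34, 2 members had 1 library more than 2 log2 units from the median of the other 11, a limit chosen after the values were seen. Mrpl38 had 6.13 RPM in aged SH library 1 against 30.8 RPM, and Mrps21 had 25 RPM in aged EE library 2 against 144 RPM.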
